A study of Mus musculus with 8 samples.

Results

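The genes described here are 33 genes of vessel endothelium and endocardium, chosen by name from a table of TPM, a length-corrected share of all transcripts, for 41709 gene symbols in whole mouse embryos. All 33 were in the table, and all 33 entered the test, for which a gene had to be at 1 TPM or more in 4 of the 8 embryos. RNA was sequenced from 8 embryos at embryonic day 9.5, each its own sample, from crosses between parents heterozygous for the K399A allele of Smo, which replaces 1 amino acid. The 4 embryos called WT carried only wild-type Smo (Smo+/+), and the 4 called mutant were homozygous for the substitution (SmoK399A/K399A). Smo encodes Smoothened, which passes the Hedgehog signal into the cell. The labels name no treatment, strain, sex, somite stage or litter for any embryo, and the substitution was in the germ line, so that every tissue of a mutant carried it.

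Endothelial cells line every blood vessel, and the endocardium is their counterpart inside the heart. They arise from mesoderm under the ETS factor ETV2, keep their identity through the related factors ERG and FLI1 and through SOX factors, grow out under VEGF, mature under angiopoietins and TIE receptors, and are held together by VE-cadherin. At this stage of mouse development the first vessels are being remodelled and the yolk sac carries its own vessels. In RNA of a whole embryo, more endothelial cells and more RNA per endothelial cell cannot be told apart, and TPM gives a share of all transcripts, so that a smaller share of other tissues raises it too.

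Promoters came from a set of RefSeq entries (build GRCm38.p6) that did not cover every gene. A gene absent from this set may still have an entry in RefSeq. The set held 27025 genes and gave a start site with flanking sequence for 19 of the 33 genes. The 250 bases before the start are printed 5′ to 3′ for the 4 of these genes with the smallest p in the comparison of genotypes, Kdr, Flt1, Calcrl and Tek, and for Etv2, whose level in mutant 4 stood apart. Capitals mark AGGAAG or CGGAAG, 2 forms of the core that ETS factors bind, on either strand.
Kdr, chr5:75978456-75978705, minus strand: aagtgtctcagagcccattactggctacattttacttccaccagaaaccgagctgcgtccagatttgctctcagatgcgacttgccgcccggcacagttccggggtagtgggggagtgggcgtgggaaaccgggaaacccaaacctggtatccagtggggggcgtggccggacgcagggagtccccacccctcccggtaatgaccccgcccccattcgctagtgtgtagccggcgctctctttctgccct
Flt1, chr5:147726012-147726261, minus strand: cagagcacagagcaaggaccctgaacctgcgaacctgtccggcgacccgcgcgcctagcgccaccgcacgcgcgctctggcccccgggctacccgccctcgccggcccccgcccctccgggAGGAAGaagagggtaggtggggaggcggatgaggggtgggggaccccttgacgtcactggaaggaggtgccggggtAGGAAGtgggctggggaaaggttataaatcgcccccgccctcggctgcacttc
Tek, chr4:94739039-94739288, plus strand: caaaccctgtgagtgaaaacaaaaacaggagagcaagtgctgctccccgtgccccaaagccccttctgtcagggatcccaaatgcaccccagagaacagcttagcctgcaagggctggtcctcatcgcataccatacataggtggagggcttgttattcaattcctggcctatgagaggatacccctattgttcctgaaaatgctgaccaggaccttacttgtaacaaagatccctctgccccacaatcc
Calcrl, chr2:84425267-84425516, minus strand: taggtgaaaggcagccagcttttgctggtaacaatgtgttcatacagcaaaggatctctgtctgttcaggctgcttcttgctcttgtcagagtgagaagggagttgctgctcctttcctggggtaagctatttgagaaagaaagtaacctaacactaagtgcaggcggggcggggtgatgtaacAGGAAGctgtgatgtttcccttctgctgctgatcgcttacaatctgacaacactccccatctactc
Etv2, chr7:30635853-30636102, minus strand: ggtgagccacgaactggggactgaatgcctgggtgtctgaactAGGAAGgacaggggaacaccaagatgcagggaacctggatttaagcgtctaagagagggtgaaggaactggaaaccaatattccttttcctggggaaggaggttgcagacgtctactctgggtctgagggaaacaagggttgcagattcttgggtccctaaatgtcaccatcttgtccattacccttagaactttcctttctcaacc
AGGAAG was found on either strand in 10 of the 19 windows (52.6%) and in 29.2% of the windows of all 27025 genes searched. CGGAAG was found in 2 of 19 (10.5%, against 13.8% of all), the SOX core AACAAT in 3 of 19 (15.8%, against 9.6%) and the GATA core GATAAG in 0 of 19, against 6.6%. The windows of Kdr and Tek held neither ETS form, and that of Flt1 held AGGAAG in 2 places. A match is a run of letters and not a measured site, and nothing about the factors is drawn from it.

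Most of the endothelial transcripts were at higher TPM in mutants, but none of the 33 passed the test over all genes. Genotypes were compared on log2(TPM + 1) with limma, with p adjusted by Benjamini-Hochberg over 13596 genes. An adjusted p under 0.05 was reached by 0 of the 33 (background 0% of all genes), with a smallest adjusted p of 0.281 among the 33. The log2 fold change was above 0 for 29 of 33, against 37.7% of all tested genes, and its median was 0.32 against -0.04 over all genes. At an unadjusted limma p under 0.05 there were 19 members higher in mutants (background 5.55%) and 0 lower (background 8%). For 10 members every mutant lay above every WT embryo (background 3.63%), and for 0 members every mutant lay below (background 3.82%). With median-ratio scaling of the libraries the members at an unadjusted p under 0.05 were 21 higher, and the split over all genes turned from 754 higher and 1088 lower to 1223 higher and 934 lower. Without mitochondrial and yolk sac transcripts in the total it was 877 higher and 797 lower, and 19 members were higher.

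**Figure D1:**
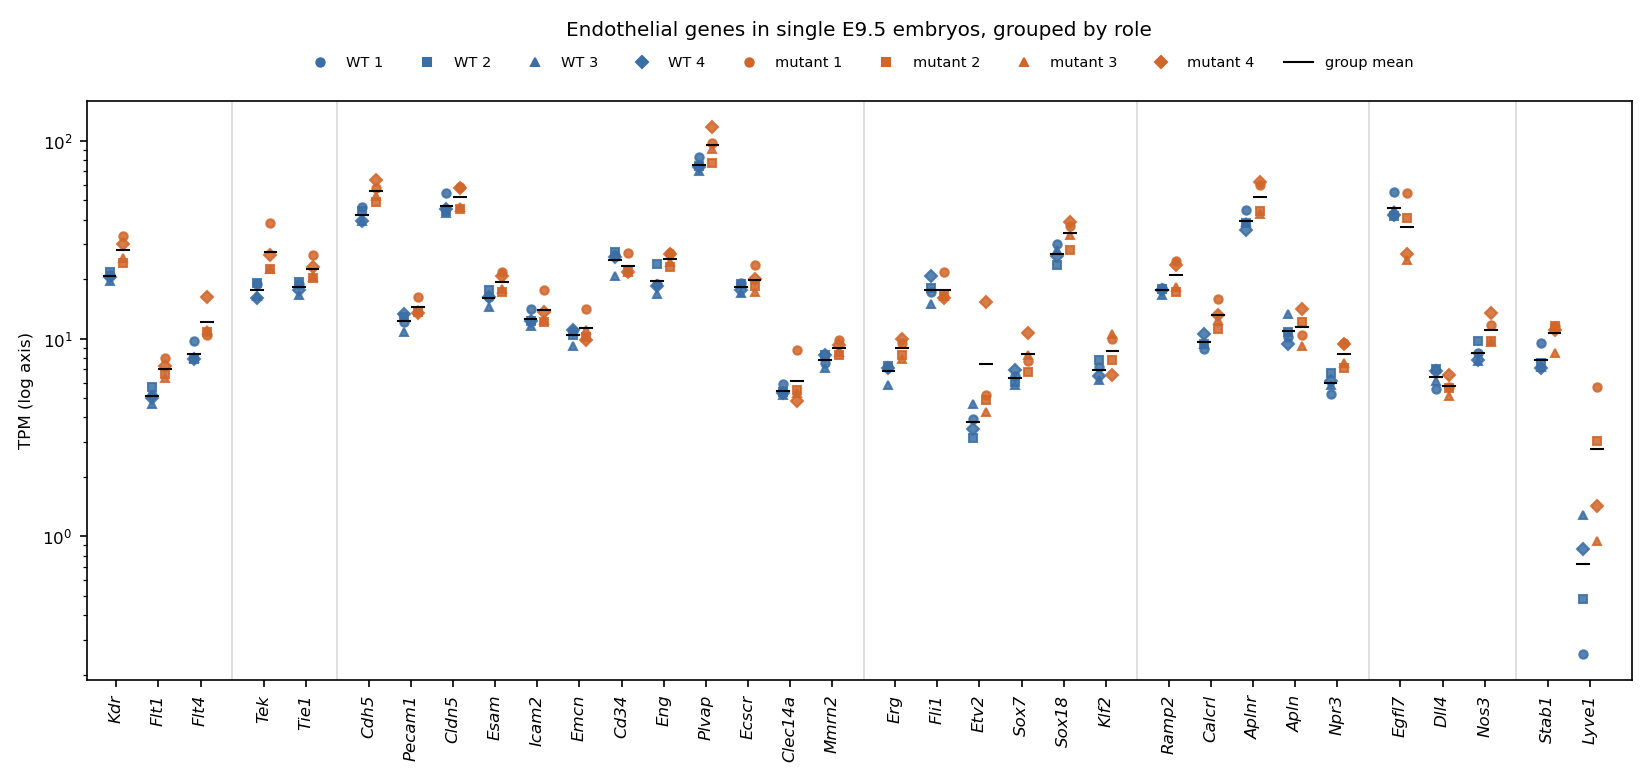
TPM on a log axis (y) of the 33 endothelial genes (x) in each of 4 WT (blue) and 4 mutant (orange) embryos, with marker shapes for embryos 1 to 4 and a black line for each group mean. From the left, the blocks hold VEGF receptors, TIE receptors, junction and surface proteins, transcription factors, peptide receptors and ligands, Egfl7 with Dll4 and Nos3, and scavenger and hyaluronan receptors. Most orange groups sit a little above the blue ones, Etv2 in mutant 4 (15.4 TPM) lies far above the rest, and Egfl7 in mutants 3 and 4 (25.1 and 26.7 TPM) lies far below.

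The members that define endothelium, Cdh5, Pecam1, Kdr, Tek and Cldn5, were present in every embryo, at 10.8 TPM or more. The samples were whole embryos, so their presence is no check of the labels. In WT embryos the highest mean level of the 33 was that of Plvap, at 75.6 ± 5.26 TPM (SD, n = 4), followed by Cldn5 at 46.8 ± 5.16, Egfl7 at 45.9 ± 6.16, Cdh5 at 42.3 ± 3.67 and Aplnr at 39.4 ± 3.88 TPM. Every WT embryo had more Plvap than any had of the others, and the embryo values of Cldn5, Egfl7, Cdh5 and Aplnr overlapped. The lowest were Flt1 at 5.14 ± 0.429, Etv2 at 3.80 ± 0.655 and Lyve1 at 0.722 ± 0.455 TPM. The TPM steps gave whole read numbers for each member. Lyve1 rested on the fewest, 14 to 310 reads per embryo, and Etv2 on 61 to 308, while Kdr rested on 3331 to 5585.

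All 3 receptors for VEGF were at higher TPM in every mutant than in any WT embryo. Kdr (chr5, 75932827 to 75978458, GRCm38) encodes VEGFR2, the main signalling receptor for VEGF on endothelium, and was at 21.1, 21.7, 19.6 and 20.6 TPM in WT embryos 1 to 4 and at 33.1, 24.1, 25.5 and 30.2 TPM in mutant embryos 1 to 4. Mutants 1 and 4 were the highest, and the WT embryos were close together. For Kdr this gave a log2 fold change of 0.42 ± 0.10 (SE; by limma, adjusted p = 0.281). An exact two-sided permutation test over embryos gave p = 0.0286, the lowest that 4 against 4 allows, and the same for each gene whose groups did not overlap. It restates that separation, which 3.63% of all tested genes showed with mutants above, and adds nothing to it. Flt1 (chr5, 147561604 to 147726011), which encodes VEGFR1, a receptor that also traps the ligand, was at 5.18, 5.69, 4.66 and 5.01 TPM in WT and 7.95, 6.63, 6.30 and 7.26 TPM in mutants. The order of the mutants put mutant 1 first and mutant 4 second, as for Kdr, and the log2 fold change was 0.39 ± 0.10 (limma adjusted p = 0.281). Flt4 (chr11, 49609263 to 49652739), which encodes VEGFR3, the receptor for VEGF-C, was at 9.75, 7.92, 7.98 and 7.87 TPM in WT and 10.4, 10.8, 11 and 16.3 TPM in mutants. Here mutant 4 stood alone at the top. Flt4 had a log2 fold change of 0.47 ± 0.14 (limma adjusted p = 0.295), and 0.33 without mutant 4.

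Both TIE receptors, which take the signal of angiopoietins or modulate it, showed the same separation of groups. Tek (chr4, 94739289 to 94874976), which encodes TIE2, the angiopoietin receptor, was at 18.9, 19.2, 16.4 and 16.1 TPM in WT and 38.6, 22.5, 22.4 and 26.5 TPM in mutants. Mutant 1 was far above the other mutants. Tek had a log2 fold change of 0.58 ± 0.16 (limma adjusted p = 0.281) and 0.41 without mutant 1. Tie1, its orphan partner, was at 19.0, 19.3, 16.7 and 17.7 TPM in WT and 26.4, 20.2, 20.4 and 23.1 TPM in mutants (log2 fold change 0.29 ± 0.10, limma adjusted p = 0.306). The ratio of Tek to Tie1 in TPM was 0.914 to 0.998 in WT embryos, and 1.46, 1.11, 1.1 and 1.15 in mutants 1 to 4. This ratio, like those below, was chosen after the values were seen and is given with no test. Ratios of Kdr to Pecam1, Calcrl to Ramp2, Aplnr to Apln, Flt4 to Kdr and Angpt2 to Angpt1 were also taken. In each of these the groups overlapped, as for Kdr to Pecam1, at 1.55 to 1.81 in WT and 1.77 to 2.23 in mutants.

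Among 12 junction and surface proteins, 11 had a log2 fold change above 0, 5 of them at an unadjusted limma p under 0.05, with a median of 0.16. Beside this and the other counts by role stand 37.7% of all tested genes above 0 and 5.55% higher at that p. Cdh5 (chr8, 104101625 to 104144511), the gene of VE-cadherin, which joins endothelial cells to each other, was measured at 46.5, 44.3, 39.3 and 39.2 TPM in WT and 57.6, 49.2, 52.4 and 63.4 TPM in mutants. The groups did not overlap, and its log2 fold change of 0.38 ± 0.09 had the lowest limma p of the 33 (limma adjusted p = 0.281). Pecam1, the adhesion protein CD31, was at 12.2, 12.8, 10.8 and 13.3 TPM in WT and 16.3, 13.6, 14.0 and 13.5 TPM in mutants. Its groups were separated by a narrow gap between WT 4 and mutant 4 (log2 fold change 0.21 ± 0.09, limma adjusted p = 0.358).

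Eng, endoglin, a co-receptor for BMP9 and BMP10, was at 18.8, 23.9, 16.8 and 18.5 TPM in WT and 27.1, 23.1, 24.3 and 26.7 TPM in mutants. WT 2 lay above mutant 2, so that the groups overlapped (log2 fold change 0.37 ± 0.11, limma adjusted p = 0.283). Plvap, which forms the diaphragms of fenestrae and caveolae, was at 83.0, 74.9, 70.7 and 73.9 TPM in WT and 97.4, 77.6, 90.8 and 117 TPM in mutants (log2 fold change 0.32 ± 0.11, limma adjusted p = 0.313). Only mutant 2 lay inside the WT range. Esam, an adhesion molecule of endothelial junctions and platelets, had a log2 fold change of 0.25 ± 0.09 (limma adjusted p = 0.325).

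The other 7 surface genes did not reach an unadjusted limma p of 0.05. Their log2 fold changes were 0.18 for Mmrn2, a matrix protein that binds CLEC14A, 0.14 for Cldn5, a tight junction claudin, and 0.12 for the adhesion molecule Icam2. They were 0.11 for Ecscr, 0.11 for Clec14a, 0.10 for the sialomucin Emcn and -0.11 for Cd34. Without mutant 1 they were 0.08 for Cldn5, 0.01 for Icam2, 0.02 for Ecscr and -0.00 for Emcn. Cd34, a sialomucin of endothelium and blood progenitors, was at 26.4, 27.3, 20.7 and 25.9 TPM in WT and 27.1, 22.1, 21.8 and 21.7 TPM in mutants, with a 95% confidence interval of its log2 fold change from -0.34 to 0.13. It was -0.19 without WT 3 and -0.06 without WT 2. Clec14a was at 8.73 TPM in mutant 1 and at 4.81 to 5.92 TPM in the other 7 embryos, and its log2 fold change became -0.06 without mutant 1 and -0.12 with the yolk sac mean as a covariate. The ratio of Cdh5 to Cd34 was 1.76, 1.63, 1.90 and 1.52 in WT and 2.13, 2.23, 2.41 and 2.92 in mutants, with no overlap between the groups.

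**Figure D2:**
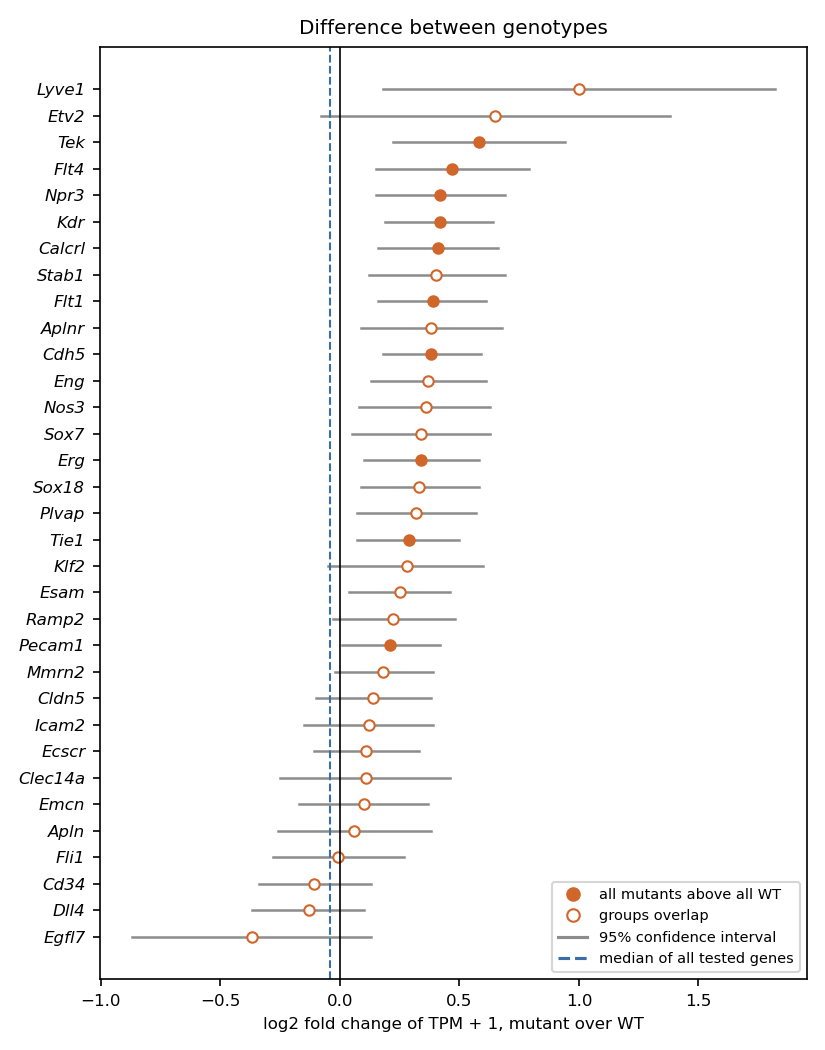
Log2 fold change of TPM + 1 between mutant and WT (x) for each of the 33 genes (y, sorted), with 95% confidence intervals from limma as grey bars. Filled circles mark the 10 genes with every mutant above every WT embryo, and the dashed line marks the median of all tested genes, -0.04. The receptors Tek, Flt4, Npr3 and Kdr lie between 0.42 and 0.58, and Egfl7, Dll4, Cd34 and Fli1 lie below 0.

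Of 6 transcription factors, Erg, Sox7 and Sox18 had an unadjusted limma p under 0.05, and Fli1, Etv2 and Klf2 did not. Erg (chr16, 95359169 to 95586593), an ETS factor that maintains endothelial identity, was at 7.19, 7.29, 5.80 and 7.07 TPM in WT and 9.48, 8.31, 7.87 and 10 TPM in mutants. The groups did not overlap (log2 fold change 0.34 ± 0.11, limma adjusted p = 0.299). Fli1 (chr9, 32422204 to 32542861), its close relative, which also acts in blood and megakaryocytes, was at 17.3, 18.1, 14.9 and 20.7 TPM in WT and 21.7, 16.5, 16.5 and 16.1 TPM in mutants. Its group means were both 17.7 TPM, and its log2 fold change of -0.01 (95% confidence interval -0.28 to 0.27) became 0.04 with median-ratio scaling and 0.01 without mitochondrial and yolk sac transcripts. The ratio of Erg to Fli1 was 0.343 to 0.415 in WT and 0.437, 0.502, 0.477 and 0.624 in mutants 1 to 4.

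Etv2 (chr7, 30633616 to 30635852), the ETS factor that starts the endothelial and blood lineages, was at 3.91, 3.13, 4.66 and 3.50 TPM in WT and 5.21, 4.88, 4.26 and 15.4 TPM in mutants. Mutant 4 was far above every other embryo, while mutant 3 lay inside the WT range. Etv2 had a log2 fold change of 0.65 ± 0.32 (limma adjusted p = 0.399) and 0.27 without mutant 4. Sox18, which acts in vessels and lymphatics, was at 23.5 to 30.0 TPM in WT and 37.1, 28.1, 33.4 and 38.8 TPM in mutants (log2 fold change 0.33 ± 0.11, limma adjusted p = 0.304). Sox7, of the same SOX subgroup, was at 5.84 to 6.94 TPM in WT and 7.74, 6.80, 8.25 and 10.7 TPM in mutants (log2 fold change 0.34 ± 0.13, limma adjusted p = 0.328). In both SOX genes mutant 4 was the highest and mutant 2 overlapped WT. Klf2, a factor induced by blood flow, was at 6.21 to 7.81 TPM in WT and 9.97, 7.77, 10.5 and 6.54 TPM in mutants (log2 fold change 0.28 ± 0.14, limma adjusted p = 0.412).

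Of 5 peptide receptors and ligands all 5 were above 0, and Calcrl, Aplnr and Npr3 had an unadjusted limma p under 0.05. Calcrl (chr2, 84330626 to 84425411), the receptor for adrenomedullin, was at 8.87, 9.43, 9.42 and 10.6 TPM in WT and 15.8, 11.2, 12.4 and 13.2 TPM in mutants. The groups did not overlap (log2 fold change 0.41 ± 0.11, limma adjusted p = 0.281). Ramp2, the partner that makes it an adrenomedullin receptor, had a log2 fold change of 0.22 ± 0.11 (limma adjusted p = 0.404), and 0.14 without mutant 1. For Ramp2, 33.4% of its annotated exon length is shared with Vps25 on the same strand, so that its reads are uncertain. Adm, the gene of adrenomedullin itself, from the list of partners, was at 1.38, 2.10, 1.90 and 2.36 TPM in WT and 5.12, 6.25, 4.21 and 3.05 TPM in mutants. Every mutant was above every WT embryo for Adm (log2 fold change 0.93 ± 0.19, limma adjusted p = 0.270).

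Aplnr, the apelin receptor of venous and sprouting endothelium, was at 44.7, 38.6, 39.0 and 35.4 TPM in WT and 59.7, 44.4, 42.9 and 62.2 TPM in mutants (log2 fold change 0.38 ± 0.13, limma adjusted p = 0.310). Mutants 1 and 4 were above all others, and mutants 2 and 3 lay inside the WT range. Its ligand Apln was at 9.42 to 13.3 TPM in WT and 9.21 to 14.2 TPM in mutants, with a log2 fold change of 0.06 (95% confidence interval -0.26 to 0.38) that became -0.04 without mutant 4 and 0.15 without WT 3. Apela, another ligand, had a log2 fold change of -0.21 ± 0.21 (limma adjusted p = 0.634). Npr3 (chr15, 11839896 to 11907287), the clearance receptor for natriuretic peptides and a marker of endocardium, was at 5.25, 6.73, 5.81 and 6.13 TPM in WT and 9.48, 7.10, 7.49 and 9.38 TPM in mutants. Its groups did not overlap (log2 fold change 0.42 ± 0.12, limma adjusted p = 0.281).

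Egfl7 and Dll4 had log2 fold changes below 0. Egfl7 (chr2, 26580014 to 26593120), which encodes a secreted protein of vessels and overlaps the gene of miR-126, was at 55, 41.7, 44.6 and 42.4 TPM in WT and 54.5, 40.8, 25.1 and 26.7 TPM in mutants. Mutants 1 and 2 lay near the WT range and mutants 3 and 4 far under it. Egfl7 had a log2 fold change of -0.37 ± 0.22 (limma adjusted p = 0.453) with all embryos, 0.05 without mutants 3 and 4, and -0.79 without mutants 1 and 2. Without mutant 1 alone it was -0.58, and without mutant 3 alone -0.22. The libraries of mutants 3 and 4 also stood apart in the mitochondrial transcript mt-Nd6, at 4.06 and 10.8 TPM against 27.9 to 36.2 TPM in the other embryos, and in Vegfa, at 22.8 and 26.1 TPM against 36.5 to 40.0 TPM. The part of these libraries in the Egfl7 difference was not tested.

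Dll4 (chr2, 119325784 to 119335962), the Notch ligand of arterial and tip cells, was at 5.59, 7, 6.09 and 6.87 TPM in WT and 5.67, 5.62, 5.11 and 6.53 TPM in mutants (log2 fold change -0.13 ± 0.11, limma adjusted p = 0.557). Relative to Cdh5 it was at 0.120, 0.158, 0.155 and 0.175 in WT and at 0.0983, 0.114, 0.0975 and 0.103 in mutants. Nos3, the nitric oxide synthase of endothelium, was at 8.47, 9.75, 7.68 and 7.77 TPM in WT and 11.7, 9.69, 9.65 and 13.4 TPM in mutants (log2 fold change 0.36 ± 0.12, limma adjusted p = 0.313). Of the exon length of Nos3, 25.2% overlaps an annotated gene on the opposite strand, Gm15587, and the strandedness of the counting is not stated.

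The scavenger receptor Stab1 and Lyve1 both had an unadjusted limma p under 0.05. Stab1, of sinusoidal and yolk sac endothelium and of macrophages, was at 9.46, 7.50, 7.18 and 7.07 TPM in WT and 11.6, 11.6, 8.43 and 11 TPM in mutants (log2 fold change 0.40 ± 0.13, limma adjusted p = 0.299). Lyve1 (chr7, 110850607 to 110863239), a hyaluronan receptor of yolk sac vessels, lymphatics and macrophages, was at 0.255, 0.480, 1.29 and 0.862 TPM in WT and 5.68, 3.03, 0.944 and 1.42 TPM in mutants. Mutants 1 and 2 were high and mutant 3 lay inside the WT range. The log2 fold change of 1.00 ± 0.36 was the highest of the 33 (limma adjusted p = 0.317), and it was -0.01 with the mean of yolk sac endoderm markers as a covariate. That mean of log2(TPM + 1) over 10 genes reached 1.15, 1.74, 4.18 and 1.28 in the WT embryos and 6.36, 5.72, 4.03 and 3.35 in mutants. Among WT embryos only WT 3 lay inside the range of the mutants, so that this covariate was hard to separate from genotype. The part of yolk sac tissue in the Lyve1 difference was not tested.

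Averaged over the endothelial genes, every mutant lay above every WT embryo. The mean of log2(TPM + 1) over the 33 genes came to 3.84, 3.82, 3.73 and 3.78 for the WT embryos and to 4.26, 3.95, 3.91 and 4.15 for the mutants, a difference of 0.27, given with no test because the genes were chosen with earlier results known. Mutant 1 was the highest of the 8 embryos for 18 members and mutant 4 for 10. WT 3 was the lowest for 19 members. Of the 19 members at an unadjusted limma p under 0.05, 15 stayed there in each of the 8 fits that left out 1 embryo. The others were Pecam1, Esam, Sox7 and Lyve1. The share of all genes that stay in this way was not counted, and these fits share most embryos, so 15 of 19 has no background. Without mutant 1 the difference in the endothelial mean was 0.210, and without mutant 4 it was 0.245. Without mutant 1, 17 members were higher at an unadjusted limma p under 0.05 (background 4.91%).

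**Figure D3:**
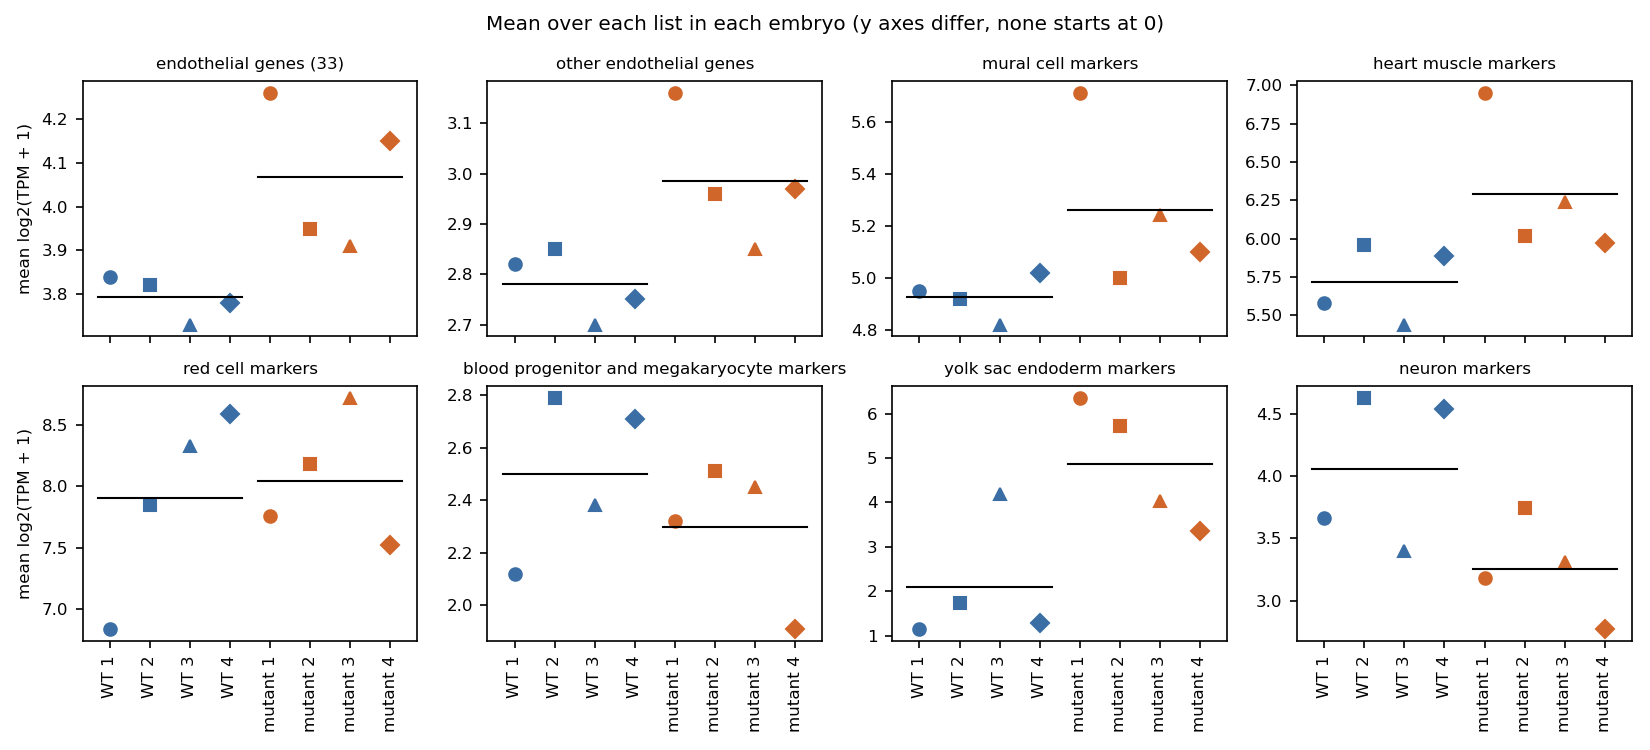
Mean of log2(TPM + 1) over each list of genes (y) in each embryo (x; blue WT, orange mutant), with black lines for the group means and separate y axes for the panels. Endothelial genes were at 3.73 to 3.84 in WT and 3.91 to 4.26 in mutants, with mutants 1 and 4 the highest. Yolk sac markers were highest in mutants 1 and 2 and heart muscle markers in mutant 1.

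Markers of other tissues are given beside the endothelial genes, and none of them had an adjusted limma p under 0.05. All 10 yolk sac endoderm markers had a log2 fold change above 0, each at an unadjusted limma p under 0.05, and their summed level was 15.7 to 247 TPM in WT and 143 to 1255 TPM in mutants. With their mean as a covariate, 10 of the 33 endothelial genes were higher at an unadjusted limma p under 0.05 (background 1.47%) and 1, Egfl7, was lower (background 13.0%). The endothelial mean then differed by 0.272. Of 9 heart muscle markers 8 were above 0, 7 of them at an unadjusted p under 0.05, and their summed level was 1171 to 1709 TPM in WT and 1804 to 3662 TPM in mutants. Of 6 mural cell markers 5 were tested and all 5 were above 0, and their summed level was 414 to 498 TPM in WT and 477 to 1025 TPM in mutants. Trophoblast and decidua markers summed to 10.8 to 33.9 TPM in WT and 25.3 to 330.1 TPM in mutants. Mitochondrial transcripts were above 0 for 12 of 13, 11 of them at an unadjusted limma p under 0.05, and mt-Nd6 was lower at that p. They summed to 46532 to 53876 TPM in WT and 58393 to 65844 TPM in mutants, with no overlap. All 9 neuron markers were below 0, 5 of them at an unadjusted p under 0.05, and summed to 156 to 383 TPM in WT and 94.4 to 198 TPM in mutants. The yolk sac mean averaged 2.09 in WT and 4.86 in mutants, so that the covariate was hard to separate from genotype. The part of these tissues and transcripts in the endothelial difference was not tested.

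The summed levels of red cell, blood progenitor and macrophage markers overlapped between the groups. The 8 red cell markers were all above 0, with a median log2 fold change of 0.13 and 0 at an unadjusted limma p under 0.05, and summed to 14313 to 49315 TPM in WT and 20410 to 51944 TPM in mutants. WT 1 was the lowest. Of 8 markers of blood progenitors and megakaryocytes, cells that share Cd34, Fli1 and Pecam1 with endothelium, 6 were tested, 2 were above 0 and 4 below, and their summed level was 29.5 to 43.9 TPM in WT and 28.0 to 40.5 TPM in mutants. The 10 macrophage markers summed to 3.62 to 7.85 TPM in WT and 1.53 to 4.85 TPM in mutants. Only Tyrobp of these passed the filter on level. Cx3cr1, a chemokine receptor of macrophages, was below that filter and had no test. Its level ranged from 0.0350 to 0.159 TPM among mutants, under the WT range of 0.177 to 0.634 TPM. No other macrophage marker of this list had groups without overlap. Mrc1 and C1qa went the other way, with mutant means of 0.672 and 0.396 TPM against WT means of 0.379 and 0.307 TPM. The defining macrophage genes Ptprc and Spi1 were at most at 0.0853 and 0.879 TPM.

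Removing whole pairs of mutants gave counts that differed by pair. Mutants 3 and 4 were left out as a pair because their libraries stood apart in earlier results of these data. Without mutants 1 and 2, limma called 11 members at an adjusted p under 0.05, of which Kdr, Flt1, Flt4, Tek, Cdh5, Plvap, Sox7, Sox18, Calcrl and Npr3 were higher (background 2.07% of all genes) and Egfl7 was lower (background 22.7%). That fit rested on the 2 mutants whose libraries stood apart, and 24.8% of all genes were called in it. At an unadjusted p under 0.05 there were 18 higher (background 5.41%). Without mutants 3 and 4 limma called 0 members (background 0.0221%), and 17 were higher at an unadjusted p under 0.05 (background 9.93%). The log2 fold change of Kdr was 0.40 and 0.43 in these 2 fits, that of Cdh5 was 0.44 and 0.33, and that of Tek was 0.45 and 0.71.

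Other genes that act in vessels were examined in 8 lists within the same fit, and none of their tested genes had an adjusted p under 0.05. In the list of VEGF and angiopoietin ligands and partners, 9 of 11 were above 0 and 6 were higher at an unadjusted limma p under 0.05, with a median of 0.23. Nrp1, a co-receptor of VEGF and semaphorins, was at 11.5 to 16.6 TPM in WT and 28.6, 17.4, 21 and 22.8 TPM in mutants (log2 fold change 0.61 ± 0.15, limma adjusted p = 0.281). Angpt1, the activating ligand of TIE2, was at 7.93 to 8.88 TPM in WT and 16.2, 11.8, 10.2 and 10.8 TPM in mutants (0.47 ± 0.13, limma adjusted p = 0.281). Every mutant was above every WT embryo for both. Angpt2 overlapped between the groups, at 2.76 to 4.10 TPM in WT and 3.66 to 9.49 TPM in mutants (0.67 ± 0.24, limma adjusted p = 0.317). Angpt4 was low, at 0.715 to 1.32 TPM in WT and 1.37 to 4.26 TPM in mutants (0.72 ± 0.23, limma adjusted p = 0.299). Vegfa had a log2 fold change of -0.29 ± 0.16 (limma adjusted p = 0.425), with mutants 3 and 4 low as described.

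The list of artery, vein and Notch genes was the one whose median, at -0.00, lay nearest to that of all genes. Of its 15 genes 7 were above 0 and 8 below. Efnb2, of arterial endothelium, was higher at an unadjusted limma p under 0.05 (log2 fold change 0.18), and the chemokine receptor Cxcr4 and the Notch target Hey1 were lower. Cxcr4, which neural and other tissues also make, was at 62.0 to 70.5 TPM in WT and 49.5, 65.3, 52.2 and 51.8 TPM in mutants (-0.29 ± 0.09, limma adjusted p = 0.288). Notch1 was at a log2 fold change of -0.34 ± 0.16 (limma adjusted p = 0.384). The median of this list became 0.04 with median-ratio scaling and 0.11 without mutants 3 and 4.

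**Figure D4:**
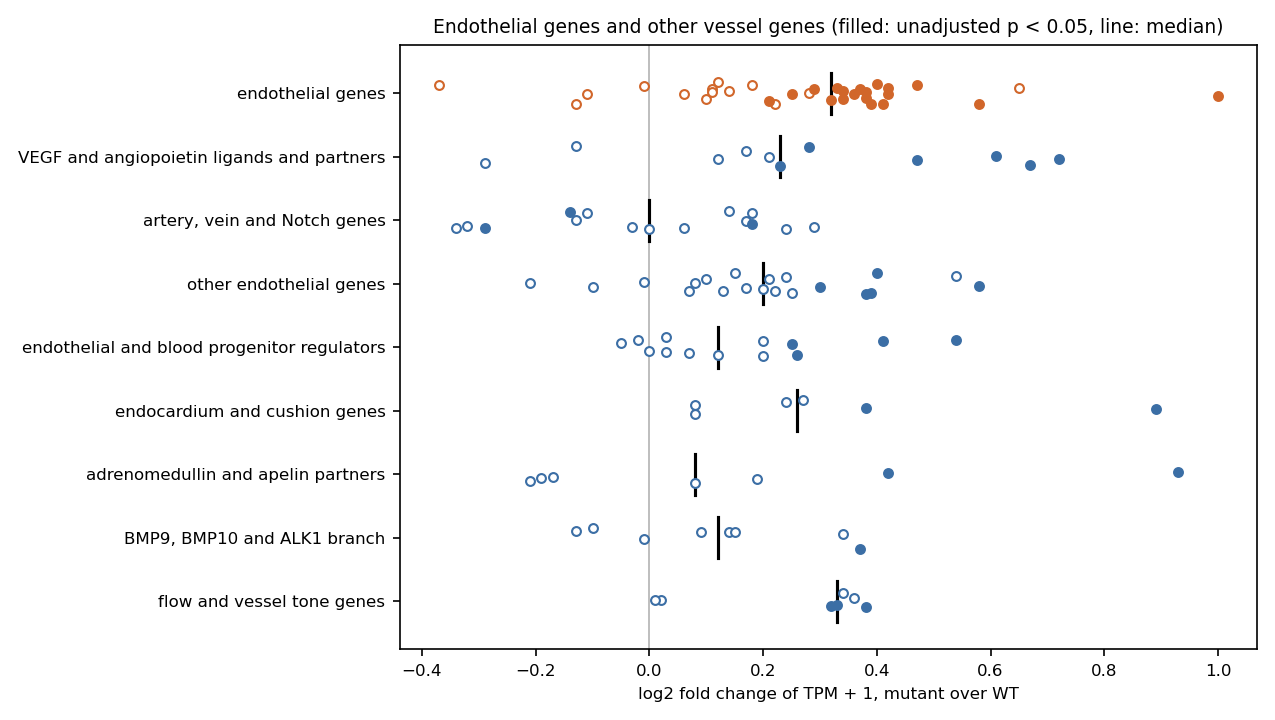
Log2 fold change of TPM + 1 between mutant and WT (x) for the 33 endothelial genes (orange) and for the tested genes of the 8 other lists (blue), 1 point per gene, with a black line for each median. Filled points had an unadjusted limma p under 0.05. The medians run from -0.00 for artery, vein and Notch genes to 0.33 for flow and vessel tone genes, beside 0.32 for the endothelial genes.

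A further list of 20 endothelial genes had 17 above 0 and a median of 0.20, with 5 higher at an unadjusted limma p under 0.05. These were Gpr182, a receptor of lymphatic and endocardial cells, at 1.12 to 1.71 TPM in WT and 2.24 to 3.42 TPM in mutants, She, Rasip1, S1pr1 and Bcl6b. Rasip1, which vessels need to form a lumen, was at 20.5 to 24.7 TPM in WT and 25.8 to 37.0 TPM in mutants (log2 fold change 0.40 ± 0.11, limma adjusted p = 0.281). S1pr1, the receptor for sphingosine 1-phosphate, had a log2 fold change of 0.30 ± 0.09 (limma adjusted p = 0.295).

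Of 13 tested regulators of endothelial and blood progenitors, 11 were above 0 and 4 were higher at an unadjusted limma p under 0.05, Mef2c (0.54), Hhex (0.41), Ets1 (0.26) and Foxo1 (0.25). Tal1, a factor of blood and endothelial progenitors, was at 9.93 to 23.6 TPM in WT and 17.0 to 23.1 TPM in mutants (log2 fold change 0.20 ± 0.23, limma adjusted p = 0.690), and Lmo2, its partner, had a log2 fold change of 0.00. Of 6 endocardium and cushion genes all 6 were above 0. Tgfb2, a ligand that acts in the forming cushions and is made in other tissues too, was at 7.46, 8.96, 8.19 and 10.3 TPM in WT and 22.3, 14.8, 14.0 and 17.5 TPM in mutants (log2 fold change 0.89 ± 0.15, limma adjusted p = 0.203). Nfatc1, a factor of the endocardium, was at 2.24 to 2.88 TPM in WT and 2.99, 3.18, 3.64 and 4.64 TPM in mutants, with no overlap (0.38 ± 0.13, limma adjusted p = 0.311).

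Of 7 flow and vessel tone genes all 7 were above 0, and 3 had an unadjusted limma p under 0.05. These were Ece1, which processes endothelin, at 62.2 to 67.4 TPM in WT and 69.3 to 100.3 TPM in mutants, Klf4, a flow-induced relative of Klf2, at 1.83 to 2.06 and 2.20 to 3.58 TPM, and Edn1 (log2 fold change 0.32). Of 8 tested genes of the BMP9, BMP10 and ALK1 branch, 5 were above 0. Smad6, an inhibitory SMAD of endothelium and other tissues, was at 21.6 to 24.8 TPM in WT and 25.8 to 35.2 TPM in mutants (0.37 ± 0.10, limma adjusted p = 0.281). Id1, Id2 and Id3, targets of the same branch, had log2 fold changes of 0.09, 0.14 and -0.10. Those of Bmp10 and Tmem100 were 0.34 and 0.15, and those of Smad1 and Smad5 were -0.01 and -0.13. Among 7 tested adrenomedullin and apelin partners, 4 were above 0, Adm and Ramp1 (0.42) at an unadjusted limma p under 0.05.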

How the data were processed

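Whole embryos were sequenced as single samples, from TruSeq libraries on a NovaSeq instrument, per the labels' protocols. The authors deposited TPM per gene symbol, 1 column per embryo. All 8 columns were matched to samples by name and 0 were left over. The build is GRCm38 (mm10), per the submitters' processing notes, and for the aligner, counting program, annotation release and strandedness the entry is: not given in the sources used here. Where nothing says that embryos came from separate litters, p-values measure the spread between these samples.

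Genes with at least 1 TPM in at least 4 embryos were tested on the log2(TPM + 1) scale by limma (3.58.1, under R 4.3.3), with a trended prior, genotype as the only term, two-sided p and Benjamini-Hochberg adjustment over 13596 genes. Fold changes on this scale understate those of low genes. The fit was tested on simulated data. Members, lists and alternatives were chosen with earlier results of these data known. All members were named, and from each other list up to 4 genes with the smallest p plus Adm, Vegfa, Nfatc1 and Tal1. Ackr3, Adm2, Hapln1, Snai2 and Thbd were among the smallest p of their lists and were left unnamed. Id1, Id3, Tmem100, Smad1, Smad5, Notch1, Apela, Lmo2, Angpt4, S1pr1, Bcl6b and Cx3cr1, where outside this rule, and the ratios were chosen after their values were seen.

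Whole reads were recovered from the TPM steps with merged exon lengths of GENCODE M21. Of 23993 genes with a value, 22458 (93.60%) were whole in all 8 libraries within 0.02 reads, giving 55.87 to 57.03 M reads (M, mega) per library over those genes. Positions are from GENCODE M21 and promoters from RefSeq, first entry per gene. Nrg1 was not analysed here.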

Additional observations from a re-analysis of the deposited data

Results flagged for a closer look

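For each member and the endothelial mean, the highest or lowest embryo of each group of 4 was compared with the others by the gap to its nearest neighbour over the group's range, against Dixon's critical value at 95%. Of 68 such groups 7 exceeded it, and about 1 in 20 does so by chance. Mutant 4 stood apart in Etv2, at 15.4 TPM against 5.21 TPM in the next mutant (gap over range 0.91), and in Flt4, at 16.3 against 11 TPM (0.90). Mutant 1 stood apart in Cd34, at 27.1 against 22.1 TPM (0.93), in Fli1, at 21.7 against 16.5 TPM (0.91), and in Clec14a, at 8.73 against 5.47 TPM (0.83). WT 1 stood apart in Flt4, at 9.75 against 7.98 TPM (0.94), and WT 3 in Erg, at 5.80 against 7.07 TPM (0.86).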

How the results depend on the processing

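No member was called under other pseudocounts, filters or scalings, without a trend, with array weights, the replicate block, the yolk sac covariate or limma voom on recovered reads (chosen after seeing the data), or in any fit without 1 embryo. Without mutants 1 and 2 there were 11 called (background 24.8% of all genes). Members higher at an unadjusted p under 0.05 numbered 16 to 21 in these settings (16 to 20 without 1 embryo), except 10 with the yolk sac covariate. A single member, Egfl7, was lower at an unadjusted p under 0.05 (1 against 0) with array weights (background 20.7% of all genes lower), with the replicate block (9.37%), without mutants 1 and 2 (33.5%) and with the covariate (13.0%). 1 of 33 is a smaller share than each of these. Without 1 embryo that count was 0 to 1, and 1 came without mutant 1 (14.2%). The replicate block gave 18 members higher and 0 called. Same-numbered WT and mutant embryos correlated at -0.0618, 0.0398, -0.194 and -0.245 after centring, and none correlated best with its own number. With so few embryos this cannot exclude a pairing that the labels do not state.

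Of 691 member values under alternatives 17 changed sign, in 6 members. Without 1 embryo each, log2 fold changes ran from -0.10 to 0.07 for Fli1, -0.06 to 0.19 for Clec14a, -0.04 to 0.15 for Apln and -0.00 to 0.16 for Emcn. Fli1 was at 0.04 with median-ratio scaling, 0.01 rescaled without mitochondrial and yolk sac transcripts, 0.10 without mutants 3 and 4, and 0.01 to 0.07 without WT 2, WT 4, mutant 2, mutant 3 or mutant 4 (0.02 without mutant 2 or mutant 3, 0.04 without mutant 4). Clec14a was at -0.06 without mutant 1, -0.09 without mutants 1 and 2 and -0.12 with the covariate. Apln was at -0.00 without WT 4, -0.04 without mutant 4 and -0.05 with the covariate. Emcn was at -0.00 without mutant 1, Egfl7 at 0.05 without mutants 3 and 4 and Lyve1 at -0.01 with the covariate. The cause was not tested. Reads were fewest for Lyve1.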
